A study of Sus scrofa with 32 samples.

Results

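The genes described here are 10 members of the interleukin 1 (IL1) system, namely the ligands IL1A, IL18 and IL33, the receptors IL1R1, IL1R2, IL1RAP, IL18R1 and IL1RL1, the receptor antagonist IL1RN and the NF-kB inhibitor NFKBIA. They were found by symbol in the pig annotation of Sscrofa11.1, and 9 of 10 matched one of the 30185 counted genes. IL1RN had no gene of that symbol there and was not analysed here. Laser capture microdissection had divided the Day 14 endometrium of 4 pregnant and 4 cyclic gilts into stroma (S), blood vessels (BV) and the epithelium of the lumen (LE) and of the glands (GE), and RNA-seq counts of 31 libraries were analysed. Libraries are named as in the labels, with C for cyclic or P for pregnant, the initial of the compartment and the number of the gilt, so that CL40 and CG40 are LE and GE of the same cyclic gilt. All gilts were prepuberal animals whose ovulation was induced with eCG and hCG. Pregnant gilts had been inseminated with semen and their tissue was taken at the hyperemic sites of attachment after the conceptus was removed. Cyclic gilts had been inseminated with the sperm-free supernatant. Pregnant GE had 3 libraries, since PG41 was not analysed here, and every other group had 4, each from another gilt.

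The IL1 family couples a small set of ligands to receptors built alike. IL1A and IL1B bind IL1R1, which signals only after the accessory protein IL1RAP has joined the complex, whereas IL1R2 binds the same ligands but lacks the signalling domain and acts as a decoy. IL33 binds IL1RL1, known as ST2, with the same accessory protein, and IL18 binds IL18R1 with IL18RAP. The receptors pass the signal through MYD88, the IRAK kinases and TRAF6 to NF-kB and to MAP kinases, and NFKBIA holds NF-kB in the cytoplasm and is itself induced by it. In pigs the elongating conceptus secretes an embryonic form of IL1B, encoded by IL1B2, around the start of attachment.

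Of the matched members, 5 lie on chromosome 3. IL18R1 (51803383 to 51844758), IL1RL1 (51868549 to 51902454), IL1R1 (52192912 to 52334734) and IL1R2 (52367434 to 52406393) are neighbours on the minus strand, and IL1A lies on the plus strand (43718320 to 43731668). IL1RAP is on chromosome 13 (127933239 to 128071984), IL18 on chromosome 9 (39839959 to 39861258), IL33 on chromosome 1 (215899830 to 215941944) and NFKBIA on chromosome 7 (64508119 to 64510754). Values are given as CPM, counts scaled to library size after TMM normalization over all 31 libraries, and per kilobase of exon where genes are compared with each other. A gene is called detectable where the authors' filtered table of a compartment holds it. In each compartment 6 members were detectable, 8 in at least 1, and IL1R2 in none.

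Libraries held between 2415216 and 7081556 counts. The 7 epithelium markers summed to between 2189 and 3275 CPM in LE and 1364 and 1731 CPM in GE. In BV they summed to between 2.56 and 273 CPM and in S to between 10.9 and 426 CPM. The captures were thus distinct, but BV and S held some epithelial RNA. The 6 fibroblast markers summed to between 18514 and 64742 CPM in BV and 28420 and 84836 CPM in S. In LE they summed to between 3278 and 12990 CPM and in GE to between 2263 and 5698 CPM. LE and GE thus held fibroblast RNA as well, and its part in the levels of the members there was not tested. The library CL128 stood apart from the other cyclic LE libraries in several members, and results that rest on it are given with and without it. In captured tissue, fewer cells of a type and less RNA per cell cannot be told apart.

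Each member had a layout of its own over the compartments. IL1R1, IL1RAP and IL18R1 dominated in LE. Per kilobase of exon, cyclic LE held 53.4 ± 24.8 CPM of IL18R1 (SD, n = 4), 46.4 ± 22.8 of IL1RAP and 31.7 ± 9.99 of IL1R1, against 9.91 ± 6.25 of IL1A, 2.17 ± 1.25 of IL18 and 1.57 ± 0.473 of IL33. These 3 receptors were thus more abundant per length in cyclic LE than any of the ligands, while IL1RL1 (0.285 ± 0.238) and IL1R2 (0.0275 ± 0.0549) were below them. In BV the order was another one, with 40.03 ± 7.49 CPM per kilobase of IL1R1 and 35.4 ± 5.73 of IL33 in cyclic gilts (SD, n = 4), whose ranges overlapped, and 1.94 ± 0.268 of IL1RAP. NFKBIA is left out of this comparison because the annotation gives its coding length only.

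**Figure D1:**
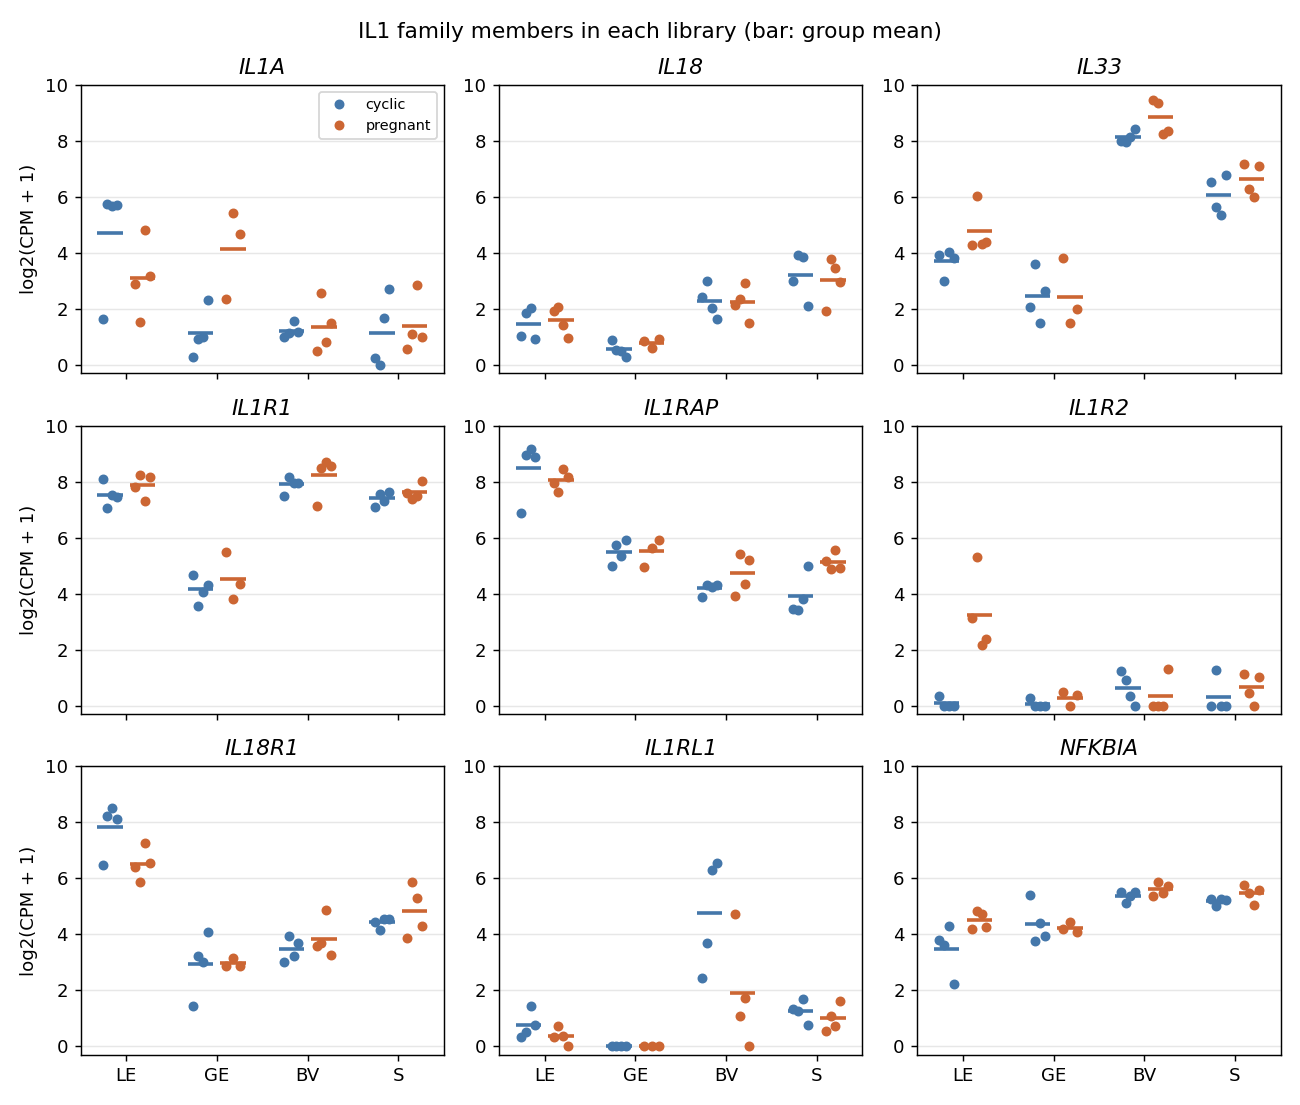
CPM of the 9 matched members in each of 31 libraries on a log2(CPM + 1) scale, by compartment, with cyclic gilts in blue, pregnant gilts in orange and a bar for the group mean. IL1R1 sits low in GE only, IL1RAP and IL18R1 are highest in LE, IL33 and IL1RL1 in BV and IL18 in S.

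The levels of a gene in a pair of compartments were compared in a joint quasi-likelihood fit of edgeR over 13887 genes, averaged over pregnant and cyclic gilts and called at a false discovery rate (FDR) of 1%. IL1A, IL18 and IL1RL1 were detectable in some compartments only and entered this fit through those where they are high, so their levels are described without a test of one of these against another. Among the 5 members detectable in all compartments (IL1R1, IL1RAP, IL18R1, IL33 and NFKBIA), 4 differed between LE and GE, where 36.5% of the 9727 genes detectable in all compartments did, 4 between LE and BV (46.0%), 4 between LE and S (47.8%), 4 between GE and BV (52.7%), 5 between GE and S (53.6%) and 1 between BV and S (5.66%). With 5 members these counts say little beside the shares of all genes, and the members are told apart by the direction of each difference.

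IL1A, the ligand that epithelia store and release, was detectable in LE and GE and in no other compartment. In LE its mean was 39.2 ± 24.7 CPM for cyclic and 10.9 ± 11.15 CPM for pregnant gilts (SD, n = 4), and it was 23.7 ± 19.2 CPM in pregnant GE (n = 3). Cyclic GE, at 1.54 ± 1.69 CPM, lay within the range of the groups of BV and S (1.37 to 2.21 CPM), so a high level was seen in LE of both groups and in GE of pregnant gilts. The mean of LE was above that of GE in cyclic gilts and below it in pregnant ones. A level averaged over both groups is therefore not compared between LE and GE.

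IL18, a cytokine made as a precursor that caspase 1 cleaves, was scarce throughout. In S its mean was 9.43 ± 5.22 CPM for cyclic and 8.17 ± 4.36 CPM for pregnant gilts (SD, n = 4), and it was about 4 CPM in BV (4.13 ± 2.06 cyclic and 3.98 ± 1.94 pregnant), near 2 CPM in LE and below 1 CPM in GE. It was detectable in S only, through which it entered the joint fit.

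IL33, an alarmin of the nucleus of endothelial and barrier cells, followed the vessels. In BV its means were 281 ± 45.4 CPM for cyclic and 496 ± 213 CPM for pregnant gilts, followed by 72.3 ± 33.4 and 106 ± 41.6 CPM in S, 12.4 ± 3.75 and 30.7 ± 22.8 CPM in LE and 5.36 ± 4.07 and 5.94 ± 6.13 CPM in GE. Every step of this order passed the test. On the log2 scale BV minus S was 2.09 (SE 0.35, adjusted p 2.52e-04), LE minus S was -2.17 (SE 0.37, adjusted p 1.42e-05), and LE minus GE was 1.75 (SE 0.41, adjusted p 8.63e-04).

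The genes whose log2(CPM + 1) followed IL33 most closely over the 31 libraries were LDLRAD4 (Pearson r = 0.963), LOC100520329 (r = 0.959) and NPR1 (r = 0.956). These values describe the shared order of compartments, since all points come from the same libraries.

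IL1R1, the signalling receptor for IL1A and IL1B, was abundant everywhere but in GE. Its means lay between 170 and 323 CPM in the groups of LE, BV and S, and were 17.5 ± 5.78 and 25.3 ± 16.4 CPM in cyclic and pregnant GE. GE was 10.1-fold below LE (log2 difference 3.34, SE 0.27, adjusted p 2.80e-10), and also fell short of BV (adjusted p 1.24e-11) and S (adjusted p 1.69e-10). LE, BV and S were not separated from each other at this threshold, with adjusted p between 0.0865 and 0.409.

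IL1RAP, the accessory chain shared by the receptors for IL1 and IL33, and IL18R1, the ligand-binding chain for IL18, had their highest levels in LE. IL1RAP averaged 414 ± 203 CPM in cyclic LE, 45.5 ± 12.9 in cyclic GE, 17.3 ± 2.39 in cyclic BV and 15.9 ± 10.2 in cyclic S (SD, n = 4). LE exceeded GE 7.29-fold, BV 15.2-fold and S 14.2-fold, with adjusted p between 1.04e-10 and 3.64e-08, GE exceeded BV and S by 2.08-fold and 1.94-fold (adjusted p 0.00284 and 0.00564), and BV and S were not separated (adjusted p 0.875). GE thus paired a low level of IL1R1 with more of its partner chain than the vessels and the stroma had.

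IL18R1 averaged 258 ± 120 CPM in cyclic LE, 20.6 ± 2.60 in cyclic S, 10.4 ± 3.37 in cyclic BV and 8.30 ± 5.94 in cyclic GE. LE exceeded S 6.18-fold (adjusted p 4.32e-07), BV 12.7-fold (adjusted p 5.28e-09) and GE 21.0-fold (adjusted p 3.23e-09). S exceeded GE (adjusted p 2.17e-04), and BV was not separated from GE (adjusted p 0.104) or S (adjusted p 0.0547). The ligand IL18 and its receptor chain thus had their highest levels in different compartments. IL18RAP, the other chain of that receptor, was detectable in none, and its group means did not exceed 1.83 CPM.

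The genes closest to IL18R1 over the 31 libraries were ATP6V0A1 (r = 0.919), PCDHA11 (r = 0.911) and LOC100621701 (r = 0.910).

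IL1RL1, the receptor for IL33, was detectable in BV only. It had 0 counts in all 7 GE libraries, which allows up to 0.0971 CPM at 3 counts over them. BV pooled over both groups had 27.3 CPM, at least 280.5-fold more, a bound that covers counting error only. Most of this pool came from CB42 and CB78 (272 and 219 counts). Pooled by group, cyclic BV had 44.6 CPM and pregnant BV 6.69 CPM, and PB43 had 0 counts like GE. Pooled over their libraries, LE had 0.509 CPM and S 1.19 CPM, from 17 and 36 counts against 613 in BV. In BV, IL33 and IL1RL1 were thus found together, save in PB43.

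NFKBIA, a target of NF-kB that feeds back on it, varied least, with group means from 11.6 to 48.4 CPM. BV and S exceeded LE and GE (adjusted p between 6.48e-06 and 6.94e-04), and neither BV and S (adjusted p 0.719) nor LE and GE (adjusted p 0.292) were separated.

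Whether the members differed between pregnant and cyclic gilts was tested in each compartment with edgeR's quasi-likelihood test on the detectable genes. The call rule of the paper was used, an FDR of 1% in LE and up to the same unadjusted p (here 3.28e-04) in the other compartments. None of the 6 members passed in LE, where 3.32% of all genes did, nor in GE (0.748%), BV (1.86%) or S (0.293%). An unadjusted p under 0.05 was reached by 3 of 6 members in LE, where 26.9% of all genes reached it, by 2 in BV (28.5%) and by 1 each in GE (23.0%) and S (14.5%). The robust GLM likelihood ratio test of edgeR, named in the paper's methods, called with the same kind of rule 2 of 6 members in LE, where it called 11.8% of all genes, and 1 of 6 each in S (3.16%), BV (11.0%) and GE (6.66%). With DESeq2, 1 member was called in GE (6.66% of all genes) and 0 in LE (11.2%), S (2.88%) and BV (8.52%). The calls among the members therefore come from the robust GLM and DESeq2, and each is named with its test. The values in all libraries of a group did not overlap with the other group for 1 of 6 members each in LE (19.4% of all genes) and GE (22.9%), and for 0 of 6 in S (8.81%) and BV (18.2%).

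**Figure D2:**
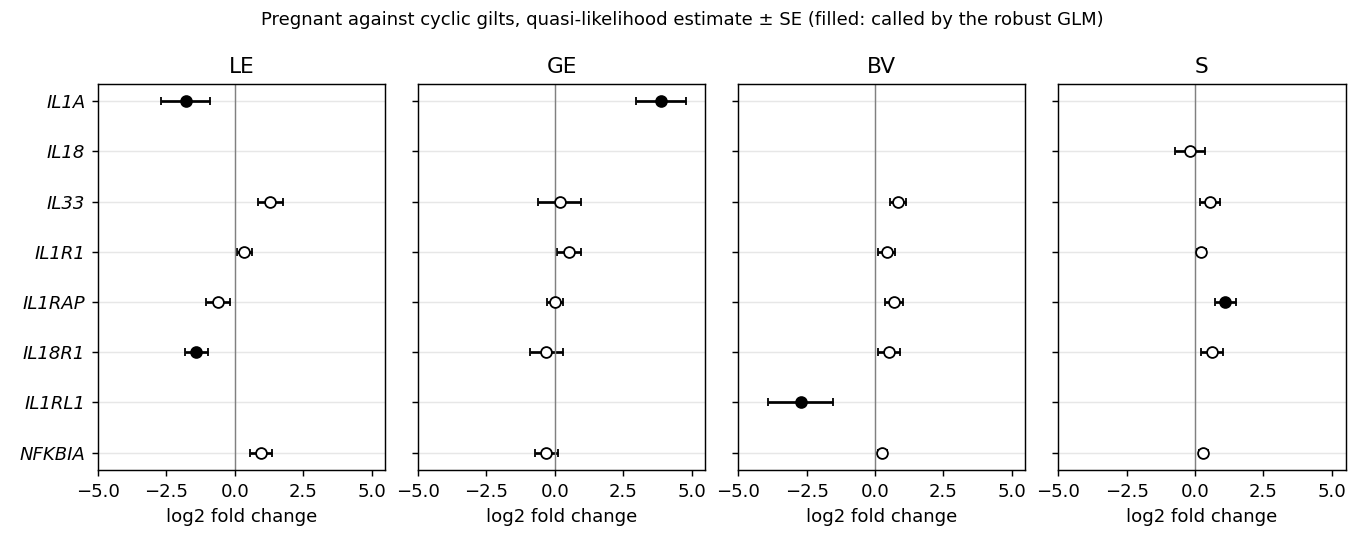
Log2 fold change of pregnant against cyclic gilts with its standard error for each detectable member in LE, GE, BV and S, from the quasi-likelihood fit. Filled points were called by the robust GLM, which are IL1A and IL18R1 in LE, IL1A in GE, IL1RL1 in BV and IL1RAP in S.

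IL1A had fold changes of opposite sign in the 2 epithelia. In LE its CPM was 2.14, 52.9, 49.9 and 51.9 in the cyclic libraries CL128, CL40, CL42 and CL78, and 6.43, 1.91, 27.1 and 8.003 in the pregnant libraries PL139, PL39, PL41 and PL43. All cyclic libraries but CL128 lay above the pregnant ones, so the groups overlapped by this library alone. The fitted log2 fold change was -1.80 (SE 0.89, adjusted p 0.229), and the robust GLM called it lower in pregnancy (log2 fold change -2.38, adjusted p 0.00535). Without CL128 it was -2.18 (adjusted p 0.0616), and 1.37e-09 was the adjusted p of the robust GLM. The robust call was lost on leaving out CL40, CL42, CL78, PL139, PL39 or PL43, with adjusted p up to 0.0686.

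In GE, IL1A had 0.216, 0.922, 1.01 and 4.03 CPM in the cyclic libraries CG128, CG40, CG42 and CG78 and 4.13, 42.4 and 24.5 CPM in the pregnant libraries PG139, PG39 and PG43. PG39 and PG43 stood far above all cyclic libraries, while PG139 was barely above CG78, and the groups overlapped when CPM was taken per library total without TMM. The log2 fold change was 3.88 (SE 0.92, adjusted p 0.0704), called higher by the robust GLM (adjusted p 6.86e-08) and by DESeq2 (adjusted p 7.18e-04). Leaving out each library in turn, it ranged from 3.16 without PG39 to 4.97 without CG78, and the robust GLM called it each time.

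Within gilts, LE held more IL1A than GE in 4 of 4 cyclic gilts but in 1 of 3 pregnant ones. In pregnant gilts numbered 39 and 43 the GE level exceeded that of LE of the same animal. The difference between the pregnancy effects in LE and GE was -5.70 on the log2 scale (SE 1.36, adjusted p 0.0216 in the joint quasi-likelihood fit), and with the gilt as replicate block it was -6.14 with an adjusted p of 0.00295, which passed the 1% threshold, as did 1.02% of all genes in that fit. In the fit without the block 0 of 8 members and 0.691% of all genes passed for this contrast. Any difference among the 4 compartments gave an adjusted p of 0.0574 for IL1A, and 0.00937 with the block. Of all genes 1.40% passed without the block and 1.94% with it. No other member had an adjusted p under 0.102 in either fit. IL1A entered this fit through LE and GE and was not detectable in BV and S, so the test over 4 compartments rests partly on few counts.

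The sum of the leukocyte markers was higher in pregnant GE too, though not each marker was. The 10 markers summed to between 53.8 and 77.6 CPM in cyclic and between 108 and 148 CPM in pregnant GE. Of 5 tested, 3 (PTPRC, CSF1R and CD14) were called higher by the robust GLM and 0 by the quasi-likelihood test. CD14 alone held 2.16 to 10.6 CPM in cyclic and 29.6 to 71.4 CPM in pregnant GE. ITGAM was uncalled but higher in every pregnant library, and LCP1 went the other way (log2 fold change -0.53), uncalled as well. The library with the most leukocyte marker RNA, PG139, had the lowest IL1A of the pregnant ones. The part of these cells in the IL1A result was not tested.

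IL18R1 was the other member that the robust GLM called in LE. It had 88.3, 301, 367 and 273 CPM in the cyclic libraries CL128, CL40, CL42 and CL78 and 84.6, 57.0, 153 and 93.5 CPM in the pregnant libraries PL139, PL39, PL41 and PL43. Again CL128 lay among the pregnant ones. The log2 fold change was -1.40 (SE 0.44, adjusted p 0.0704), called lower by the robust GLM (adjusted p 4.68e-04), whereas DESeq2 left it uncalled (adjusted p 0.0130). The call of the robust GLM held when each library was left out, except CL42 (adjusted p 0.0108), and without CL128 the log2 fold change of the quasi-likelihood fit was -1.69 (adjusted p 0.0109). In GE, BV and S no test called IL18R1.

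IL1RAP in LE had the same shape, with 116, 497, 571 and 470 CPM in the cyclic libraries CL128, CL40, CL42 and CL78 against 246, 198, 345 and 289 CPM in the pregnant libraries PL139, PL39, PL41 and PL43. Its log2 fold change was -0.61 (SE 0.43, adjusted p 0.395) and no test called it with all libraries. Without CL128 the mean of the cyclic group was 513 ± 52.7 CPM (SD, n = 3) and the groups no longer overlapped, likewise for IL1A and IL18R1. The robust GLM then called these 3 members of 6 and 11.8% of all genes. CL128 was picked for its low IL1A in these same data, so these results without it are a description and no support for a change. The share of all genes without overlap was not counted for this setting. IL1R1 in LE did not share this shape, with 275, 131, 183 and 175 CPM in the cyclic gilts and 223, 298, 157 and 284 CPM in the pregnant ones (log2 fold change 0.35, SE 0.27, adjusted p 0.450).

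Keratin genes were lower in pregnant LE too. Unlike for IL1A, IL18R1 and IL1RAP, CL128 lay with the other cyclic libraries, above every pregnant one, in KRT7, KRT8, KRT18 and KRT19. Of 7 epithelium markers 4 were called lower in pregnant LE by the robust GLM (KRT7, KRT8, KRT18 and KRT19), 2 of them by the quasi-likelihood test, and CDH1 was higher in every pregnant library than in any cyclic one. Of 4 gland markers SPINK1 and PAEP were at 0 in LE but also in GE, so they cannot show gland RNA. FOXA2 had between 65.5 and 94.6 CPM in GE and did not exceed 7.46 CPM in LE. PRSS23, the remaining one, had its highest cyclic value in CL128 (216 CPM) and reached 176 CPM in BV as well. The part of the keratin genes in the LE results was not tested.

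**Figure D3:**
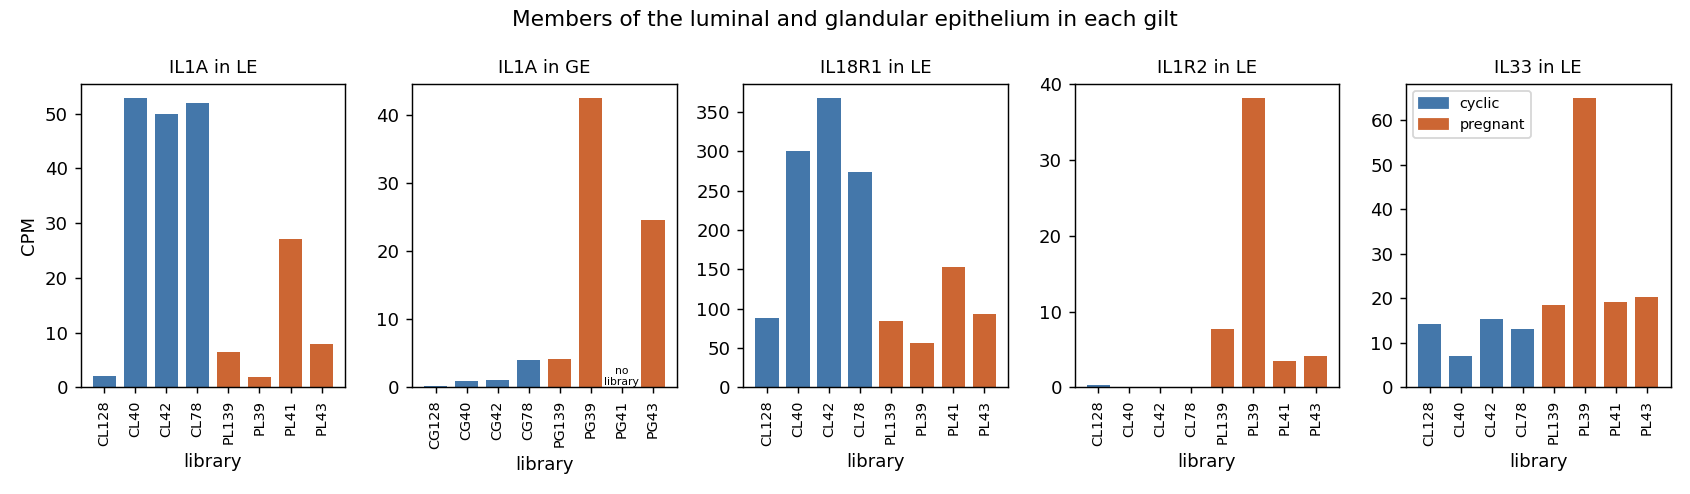
CPM of IL1A in LE and GE and of IL18R1, IL1R2 and IL33 in LE in each library, cyclic in blue and pregnant in orange, on separate linear axes. CL128 shows low IL1A and IL18R1 beside the other cyclic libraries, PG39 has the highest IL1A in GE, and PL39 of the same gilt the highest IL1R2 and IL33 in LE.

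IL1R2, the decoy receptor, was nearly absent from cyclic LE and present in every pregnant one. It had 1, 0, 0 and 0 counts in the cyclic libraries CL128, CL40, CL42 and CL78, and 30, 120, 24 and 13 counts in the pregnant libraries PL139, PL39, PL41 and PL43, or 7.71, 38.2, 3.43 and 4.16 CPM. The groups did not overlap. The pooled ratio was 177, with an exact 95% binomial interval from 31.3 to 7020 that covers counting error only, and without PL39 it was 77.5 (13.4 to 3110).

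Since the filtered table of LE does not hold IL1R2, it was tested among all 22213 genes with a count in LE. It was called higher in pregnancy by the quasi-likelihood test (p 4.78e-05, adjusted p 0.00405), the robust GLM (adjusted p 9.93e-09) and DESeq2 (adjusted p 1.01e-06). In that test it was the only one of 9 members called in LE (2.17% of the genes), and 0 of 9 were called in S (0.230%), 0 of 9 in BV (1.30%) and 0 of 8 in GE (0.621%). Leaving out CL128, CL40 or CL42 took the adjusted p of the quasi-likelihood test to 0.0105, 0.0178 and 0.0160, just past the threshold.

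In the other compartments IL1R2 stayed at the level of single counts, with 1 count over cyclic and 3 over pregnant GE, 5 and 9 over S, and 8 and 4 over BV. Whether its pregnancy effect differed among compartments did not pass the threshold, with an adjusted p of 0.0724 in the joint fit of all 24582 counted genes, of which 0.626% passed, and 0.0893 with the gilt as replicate block. Leukocyte markers summed to between 58.0 and 90.5 CPM in cyclic and between 91.2 and 147 CPM in pregnant LE, with the highest value in PL39, which also had the most IL1R2. Their part in this result was not tested. The neighbouring receptor genes IL1R1, IL18R1 and IL1RL1 had values of their own in LE, and IL1RL1 did not exceed 1.71 CPM there.

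IL33 was higher in every pregnant LE library than in any cyclic one. It had 14.2, 6.99, 15.4 and 13.2 CPM in the cyclic libraries CL128, CL40, CL42 and CL78 and 18.5, 64.9, 19.1 and 20.2 CPM in the pregnant libraries PL139, PL39, PL41 and PL43. PL39 alone made up most of the group's spread, and the other pregnant libraries lay just above the cyclic ones. Its log2 fold change was 1.30 (SE 0.46, adjusted p 0.102), and neither the robust GLM (adjusted p 0.0742) nor DESeq2 (adjusted p 0.0416) called it. The 7 endothelium markers summed to between 112 and 471 CPM in cyclic and between 335 and 758 CPM in pregnant LE, with the highest sum in PL39. VWF and TIE1 were higher in every pregnant LE library than in any cyclic one, though neither the quasi-likelihood test nor the robust GLM called any of the 7. Their part in the IL33 values of LE was not tested.

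In BV the ligand IL33 and its receptor IL1RL1 had fold changes of opposite sign. IL33 had 252, 246, 280 and 345 CPM in the cyclic libraries CB128, CB40, CB42 and CB78 and 705, 653, 302 and 322 CPM in the pregnant libraries PB139, PB39, PB41 and PB43. PB139 and PB39 were high, and PB41 and PB43 lay within the cyclic range. The log2 fold change was 0.83 (SE 0.29, adjusted p 0.100), and no test called it.

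IL1RL1 in BV had 4.37, 11.99, 77.2 and 93.1 CPM in CB128, CB40, CB42 and CB78 and 25.4, 1.14, 2.30 and 0 CPM in PB139, PB39, PB41 and PB43. Each group held a wide range, and the overlap came from PB139, CB128 and CB40. The log2 fold change was -2.72 (SE 1.19, adjusted p 0.170), called lower by the robust GLM (log2 fold change -4.61, adjusted p 4.42e-05), while DESeq2 gave an adjusted p of 0.250. Without PB139 the quasi-likelihood value was -5.29 (adjusted p 0.0357), and over the other left-out libraries it lay between -3.10 and -2.15, with the robust GLM calling it each time.

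The BV libraries with the most IL1RL1 were also those with the most smooth muscle marker RNA. The 7 smooth muscle markers summed to between 5091 and 16371 CPM in cyclic BV, and to 753, 1066, 1917 and 6194 CPM in PB39, PB43, PB41 and PB139. The pregnant library with the most IL1RL1 was thus the one with the most smooth muscle RNA, and the cyclic libraries with the most IL1RL1 were CB42 and CB78, which also led in these markers. Below these the order was not kept throughout. CB128 had a larger sum than CB40 (5536 against 5091 CPM) but less IL1RL1, and PB43 a larger one than PB39 but 0 counts of IL1RL1. PB41 had more of both than PB39 and PB43. The robust GLM called 6 of 7 smooth muscle markers lower in pregnant BV, and the quasi-likelihood test 0 of 7. The genes closest to IL1RL1 over the 31 libraries were ADAMTS8 (r = 0.932), ACTG2, a smooth muscle actin (r = 0.895), and CNTN1 (r = 0.889).

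Mast cells carry IL1RL1 as well. Of 6 matched mast cell markers 3 were tested in BV, and neither the quasi-likelihood test nor the robust GLM called any. The sums overlapped, with 114 to 291 CPM in cyclic and 126 to 395 CPM in pregnant gilts. CPA3 was at 0 in BV and HPGDS did not exceed 0.284 CPM. In GE, where IL1RL1 had 0 counts, the sums still lay between 76.5 and 173 CPM, so they are not read as a measure of mast cells. Epithelium markers were higher in BV of every pregnant gilt, at 149 to 273 CPM against 2.56 to 45.6 CPM. Of 7 endothelium markers 1 was called higher (TIE1). The part of smooth muscle, mast cell, epithelial and endothelial RNA in the IL1RL1 result was not tested.

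**Figure D4:**
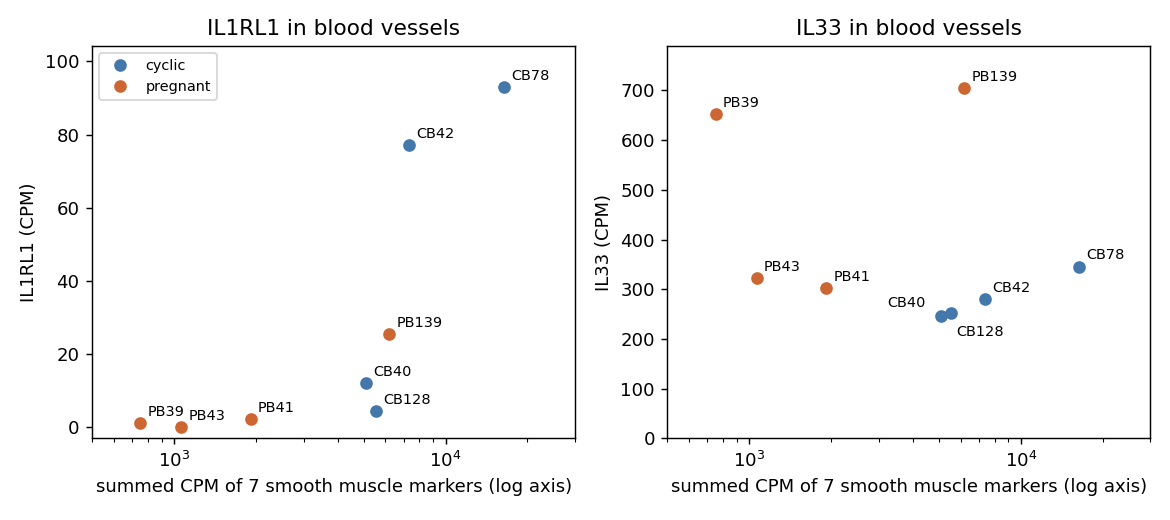
CPM of IL1RL1 (left) and IL33 (right) in BV of each gilt against the summed CPM of 7 smooth muscle markers on a log axis, with cyclic gilts in blue and pregnant gilts in orange. IL1RL1 is highest in CB42 and CB78 and, among the pregnant libraries, in PB139, the libraries with the largest sums, while IL33 is highest in PB39 and PB139, which lie at opposite ends of the pregnant range.

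IL1R1 and IL1RAP in BV had log2 fold changes of 0.43 (SE 0.30, adjusted p 0.381) and 0.69 (SE 0.33, adjusted p 0.194), and no test called them. PB139 was the lowest pregnant library for both, with 138.7 CPM of IL1R1 against 357 to 418 in the other pregnant gilts, and 14.0 CPM of IL1RAP against 19.5 to 42.1. Without it the robust GLM called 3 of 6 members in BV, and 12.4% of all genes.

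In S the accessory chain IL1RAP was the one member that a test called, the robust GLM. It had 9.86, 9.53, 13.1 and 30.98 CPM in the cyclic libraries CS128, CS40, CS42 and CS78 and 34.6, 28.1, 46.2 and 28.9 CPM in the pregnant libraries PS139, PS39, PS41 and PS43. CS78 lay among the pregnant libraries and the other cyclic ones far below. The log2 fold change was 1.11 (SE 0.38, adjusted p 0.245), and the robust GLM called it higher (adjusted p 0.00121) while DESeq2 did not (adjusted p 0.113). Without CS78 it was 1.68 and the quasi-likelihood test called it by the unadjusted p limit (adjusted p 0.0715), and without CS40 the robust call was lost (adjusted p 0.0649).

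Epithelium markers, whose compartment holds far more IL1RAP than S does, summed to 167, 14.0, 10.9 and 154 CPM in S of the cyclic gilts in the same order and to 263, 32.3, 426 and 97.4 CPM in the pregnant ones. CS128 had little IL1RAP at a high sum and PS39 more of it at a low one. Their part in the IL1RAP result was not tested.

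IL18 in S had 6.96, 14.0, 13.5 and 3.25 CPM in the cyclic gilts and 2.81, 12.9, 10.2 and 6.81 CPM in the pregnant ones, and the groups covered the same range (log2 fold change -0.19, SE 0.55, adjusted p 0.910). IL33, IL18R1, IL1R1 and NFKBIA in S had log2 fold changes between 0.23 and 0.63, and no test called them.

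NFKBIA had its largest fold change in LE. Its CPM was 12.8, 11.14, 18.8 and 3.64 in the cyclic and 17.2, 27.4, 25.7 and 18.2 in the pregnant gilts, so that CL42 alone overlapped. The log2 fold change of 0.96 (SE 0.40, adjusted p 0.163) was called by none of the tests, and in GE, BV and S it lay between -0.31 and 0.31. Over the detectable members the median log2 fold change was 0.43 in S, 0.48 in BV, 0.09 in GE and -0.13 in LE, while that of all genes was within 0.01 of 0 in each.

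The rest of the pathway was read from lists of other ligands and receptors, processing enzymes, adaptors and kinases, NF-kB subunits and regulators, and genes known to respond to IL1. Of these, LE had 52 tested genes, GE and BV 50 each, and S 56. In this order of compartments, the quasi-likelihood test called 1, 0, 1 and 0 of them, against 17, 14, 13 and 11 at an unadjusted p under 0.05, the robust GLM 7, 4, 6 and 2, and DESeq2 7, 4, 3 and 0. For the robust GLM these were 13.5%, 8%, 12% and 3.57% of the genes tested, near the shares of all genes given above, so they are no result about the pathway as a whole.

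IL1B and its embryonic form IL1B2 are related genes, and whether reads of either were lost or split in counting was not tested. IL1B had 0 counts in LE and group means up to 0.466 CPM elsewhere, and IL1B2 had 0 counts in all 31 libraries. Both are thus uncertain as to level. Of the markers of the trophoblast, CYP17A1, CYP19A1 and CDX2 were at 0 in all LE libraries, as was IL1B2, whose level is uncertain. CYP19A3 lay between 0 and 2.05 CPM in LE of cyclic gilts and was at 0 in that of pregnant ones. IFNG, also secreted by the pig conceptus, lay between 0 and 0.571 CPM in LE of cyclic gilts and between 0 and 9.92 CPM in that of pregnant ones, and GATA3 between 0.285 and 2.68 CPM and between 2.57 and 6.72 CPM, so the groups overlapped for both. The 8 matched markers summed to between 5.46 and 25.1 CPM in cyclic and 18.1 and 26.6 CPM in pregnant LE. Of these sums PAG1 alone held 2.73 to 24.0 CPM in cyclic and 9.92 to 19.8 CPM in pregnant LE. The pig symbol PAG1 names a membrane adaptor of lymphocytes and not a pregnancy-associated glycoprotein, and is therefore no sign of conceptus RNA. The sum is thus not read as a measure of conceptus RNA.

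Of the other receptors, 4 tested in LE, 2 each in GE and S and 1 in BV, the quasi-likelihood test, the robust GLM and DESeq2 called 0, and 1 (IL1RAPL1 in LE) had an unadjusted p under 0.05. IL1RAPL2, a relative of IL1RAP, had in LE 43.8 ± 22.0 CPM for cyclic and 27.3 ± 4.93 CPM for pregnant gilts (SD, n = 4) and at most 2.92 CPM in the other groups. The soluble IL18 inhibitor IL18BP and the negative regulator SIGIRR had group means of at most 10.9 CPM, with log2 fold changes between -0.08 and 0.64 where they were tested.

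Downstream of the receptors, the quasi-likelihood calls went to a regulator of mRNA decay and to a kinase. In LE, ZC3H12A, an RNase that degrades cytokine mRNAs, was upregulated from 4.87 ± 1.83 to 18.7 ± 3.35 CPM (log2 fold change 1.94, SE 0.31, adjusted p 0.00652 from the quasi-likelihood test). In BV, MAP3K8, a kinase that feeds the ERK pathway, was upregulated from 5.16 ± 1.58 to 17.7 ± 4.86 CPM (log2 fold change 1.78, SE 0.30, adjusted p 0.0163 and past the unadjusted limit). These were the only pathway genes that the quasi-likelihood test called.

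The robust GLM added MAP2K6, NFKBIZ and SOD2 as higher in pregnant LE, with quasi-likelihood log2 fold changes of 2.29, 1.24 and 1.31, and CAPN2, the calpain chain associated with release of IL1A, PTGES and FOS as lower, with -1.27, -3.05 and -1.54. In GE, where IL1A was higher, it called the kinase inhibitor IRAK3 (1.86), REL (1.17) and LIF (2.47) higher and UBE2N (-0.91) lower. In BV it called IER3 (1.72), NFKBID (1.08) and the deubiquitinase TNFAIP3 (0.86) higher and CAPN2 (-0.59) and UBE2N (-0.84) lower, and in S PTGS2 (1.09) and IER3 (1.33) higher. Genes of the list of IL1-responsive genes thus went both ways in LE, with SOD2 and ZC3H12A higher and PTGES and FOS lower.

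**Figure D5:**
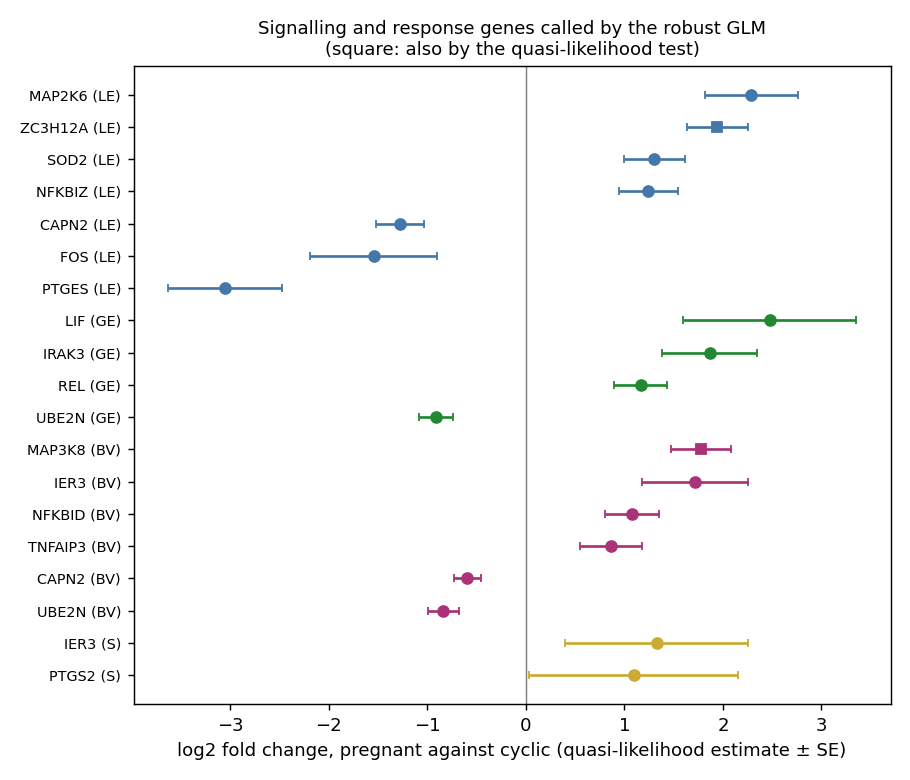
Log2 fold change of pregnant against cyclic gilts with its standard error for the pathway genes called by the robust GLM in LE, GE, BV and S, from the quasi-likelihood fit. Squares mark ZC3H12A in LE and MAP3K8 in BV, which the quasi-likelihood test called as well.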

How the data were processed

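Gilts were grouped by the labels, 4 cyclic and 4 pregnant. Within a compartment each library came from another gilt, so p-values of the tests there measure the spread between gilts. The joint fit without the gilt block treats libraries of the same gilt from different compartments as independent. The deposited values are whole counts per NCBI gene without normalization. Per the paper's methods, the authors used Trim Galore for trimming, Hisat2 for alignment (genome Sscrofa11.1) and QuasR for counting once PCR duplicates were taken out, and filtered genes by a minimum CPM. Libraries were amplified by PCR from picogram amounts of RNA, which widens the spread of low counts, and the strand used in counting is not given in the sources used here. Intervals and limits for 0 counts cover counting error only.

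Pregnant and cyclic libraries were compared with edgeR 4.0.16 in R 4.3.3 (quasi-likelihood test, TMM, Benjamini-Hochberg adjustment over all genes of the compartment), with edgeR's robust GLM and DESeq2 1.42.0 beside it. All adjusted p not credited to another test are from edgeR's quasi-likelihood test. Fold changes come from the fit of each compartment, levels and differences between compartments from a joint fit of 31 libraries, and standard errors from the coefficient and its F statistic. Libraries of a gilt share an animal. Deviations from group means over 9727 genes correlated with a median r of 0.165 in 45 pairs of the same gilt and -0.0513 in 135 pairs of other gilts, so the gilt was used as a block in an alternative fit. Scripts were tested on simulated data.

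The members and lists were chosen with earlier results of these data known. All members are named, pathway genes where a test called them (by the quasi-likelihood test, and up to 4 in a compartment with the smallest p of the robust GLM), and the 3 genes closest to each of the 3 members with the widest range of group means. CAPN2 in LE and BV, SOD2 and FOS in LE and TNFAIP3 in BV lie past that limit and were named after their values were seen. Complete endometrial tissue was not analysed here. Alternatives were RLE normalization, the robust GLM, DESeq2, filterByExpr, no filter, no ribosomal RNA genes, an FDR of 5%, genes detectable in all compartments, the gilt block, CPM of the library total, and each library or gilt left out. The tests of IL1R2, the robust GLM without each library, and the counts of levels over the members detectable in all compartments were chosen after seeing the data.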

Additional observations from a re-analysis of the deposited data

Results flagged for a closer look

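Dixon's test at 95% was run on 43 groups of 4 libraries, those of the detectable members and, added to them, IL1R2 in pregnant LE. In 6 groups it set a library apart from the other 3. Chance gives about 1 in 20 for values with a normal distribution, which CPM need not have. The share over all genes was not counted, so the number of such groups is no result about the members. IL1A in cyclic LE had its lowest value in CL128 (2.14 CPM, the others 49.9 to 52.9). PL39 was the highest pregnant library for IL1R2 (38.2 CPM, the others 3.43 to 7.71) and IL33 (64.9 CPM, the others 18.5 to 20.2) in LE. IL1RAP in cyclic S was highest in CS78 (30.98 CPM, the others 9.53 to 13.1), IL18R1 in pregnant BV in PB41 (28.0 CPM, the others 8.53 to 11.7) and IL1RL1 in pregnant BV in PB139 (25.4 CPM, the others 0 to 2.30).

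IL1A differed in its pregnancy effect between LE and GE, with a log2 difference of -6.14 and an adjusted p of 0.00295 in edgeR's joint quasi-likelihood fit with the gilt as replicate block, where IL1A was higher in every pregnant than in any cyclic GE library (3 against 4) and the LE groups overlapped by CL128. Without the block the adjusted p was 0.0216.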

How the results depend on the processing

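The 24 fold changes of detectable members were recomputed 330 times. In 308 the direction and the call stayed, in 7 a call was gained and in 15 the sign turned. Those that turned had log2 fold changes between -0.31 and 0.53 with all libraries, and no test called them. The cause of these changes was not tested. The sign turned for IL1RAP in GE without a filter (-0.0062), with filterByExpr (-3.38e-04) and over left-out libraries (-0.23 to 0.25), for IL33 in GE with the robust GLM (-0.17) and over left-out libraries (-1.14 to 0.80), and over left-out libraries for IL1R1 (-0.13 to 0.84), IL18R1 (-0.65 to 0.24) and NFKBIA (-0.50 to 0.18) in GE and IL18 in S (-0.50 to 0.12). The log2 differences between the pregnancy effects in LE and GE of IL1R1 (-0.64 to 0.51) and IL33 (-3.39e-04 to 2.62) turned as well on leaving out the gilt of PL139 and that of PL39.

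Calls of members moved from 0 to 2 in LE with the robust GLM and to 1 without a filter (IL1R2), to 1 in GE with DESeq2 or the robust GLM, and to 1 in BV and 1 in S with the robust GLM. Over left-out libraries the quasi-likelihood test made 0 to 1 calls in S, and the robust GLM 0 (without CL42) to 3 (without CL128) in LE, 1 to 3 (without PB139) in BV and 0 (without CS40) to 1 in S. The fitted log2 fold change of IL1R2 in LE, which depends on the prior count and is no bound, lay between 5.82 and 8.79. In GE the number of members whose groups did not overlap fell to 0 with CPM of the library total.

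Counts over all genes were 1342, 791, 943 and 310 in LE, GE, BV and S with DESeq2, 1411, 793, 1216 and 377 with the robust GLM, and 1288, 221, 958 and 4 at an FDR of 5% within the compartment. Over left-out libraries they ranged from 101 to 439, 38 to 110, 77 to 231 and 12 to 52. For the differences in pregnancy effect they ranged over left-out gilts from 63 to 172 for any compartment and from 18 to 98 for LE against GE, and for the levels in BV against S from 473 to 921. Among genes detectable in all 4 compartments, 3562 differed in level between LE and GE, 5166 between GE and BV, 5250 between GE and S and 538 between BV and S.

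With the gilt as replicate block, 1 of 8 members (IL1A) had a pregnancy effect that differed among compartments, beside 1.94% of all genes, and 1 of 8 (IL1A) between LE and GE, beside 1.02%. The former rests partly on few counts of IL1A in BV and S. The block changed no count of members by over 1.5 times among the differences in level. Over left-out gilts 0 to 1 members differed in pregnancy effect between LE and GE (1 without the gilt of PL41), and no count of levels over the 5 members detectable in all compartments moved by over 1.5 times.

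Depth limits IL18, IL1RL1 outside BV, IL1R2 outside LE and IL1A in BV and S, which rest on few counts. With 4 or 3 libraries a group and a spread between gilts as wide as that of IL1A or IL1RL1, a change that misses the threshold cannot be taken as absent.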

Other observations

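Some genes of the family lie outside the filtered tables, and their values stand in no comparison above. IL1RL2, the receptor for the IL36 ligands and a neighbour of IL1R1 on chromosome 3, had 3.26 ± 1.58 CPM in cyclic LE and 0.357 ± 0.714 CPM in pregnant LE (SD, n = 4), and the groups overlapped. In BV it had 0.243 ± 0.319 CPM in cyclic and 1.44 ± 1.24 CPM in pregnant gilts. IL18RAP in S had 1.33 ± 0.586 CPM for cyclic and 1.83 ± 1.15 CPM for pregnant gilts.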
